A study of Saccharomyces cerevisiae with 6 samples.

Results

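The ferric and cupric reductase genes FRE1 to FRE8 and CTR1, the gene of the high-affinity copper transporter, are 9 genes chosen by name among the 5449 genes of Saccharomyces cerevisiae that the arrays measured. Each had 1 probe set, a group of short array probes that reports 1 transcript. Messenger RNA was measured on 6 one-colour arrays: 3 of a strain deleted for PUN1, which encodes a plasma membrane protein, and 3 of the wild type, each a biological replicate. The design describes the mutant as a homozygous diploid and the wild type as a diploid, both of the Σ1278b background, a yeast that grows as filaments when nitrogen is scarce. Both strains were first cultured in YPD (30 °C, OD600 of 0.6) and then held for 6 h in SLAD, a medium low in nitrogen with 2% glucose, before harvest. The labels give no further allele, and do not say how many clones of the mutant were used.

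PUN1 checked the labels: it read 8.33, 4.83 and 4.93 (log2) on the deletion arrays, against 13.35, 13.50 and 13.55 on the wild-type arrays. Deletion replicate 1 was above the array background, which lay at 5.67 to 5.74, and the other deletion arrays were not. The mating-type markers of the mutant did not read as those of an a/alpha diploid, and they do not measure ploidy. HMRA1, the gene of the a1 repressor, which an a/alpha diploid expresses, was above background on 0 of 3 deletion arrays. It was above background on 3 of 3 wild-type arrays. Of 8 haploid and alpha-cell markers, 8 passed the test as higher in the deletion arrays, and their summed level was 15.76 to 15.84 (log2) there, against 10.63 to 10.81 in wild type. Of 5 a-cell markers, 0 passed. The HMRA1 and HMLALPHA1 probe sets also match copies at the mating-type locus. In each result below, the loss of PUN1 and this difference in cell type cannot be told apart. The 25S ribosomal RNA control was high on deletion replicates 2 and 3 and on wild type replicate 1 (11.28 to 12.81, against 8.85 to 9.07 on the others).

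Yeast takes up much of its iron and copper after reducing the metal at the cell surface. FRE proteins are membrane flavocytochromes that carry electrons from NADPH through haem to ferric or cupric ions. The reduced copper enters through Ctr1 and the reduced iron through the Fet3-Ftr1 oxidase and permease. When copper is low the activator Mac1 turns on CTR1, CTR3, FRE1 and FRE7, and when iron is low the activator Aft1 turns on FRE1 to FRE6 with the rest of the iron regulon.

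FRE7, a reductase gene controlled by copper, was 5.98-fold higher in the deletion arrays, and FRE3, a reductase gene for iron bound to siderophores, was at 78.2% of its wild-type level. These were the 2 of 9 members that passed the limma test (Benjamini-Hochberg adjusted p under 0.05), 1 in each direction. Over all 5498 probe sets tested 25.6% passed, 15.8% as higher and 9.82% as lower, so the count of members called lies near the share among all genes. The excess of higher calls depends on the scaling: 868 were higher and 540 lower as reported, against 702 and 711 after median centring and 700 and 760 after quantile normalization. The median difference of the members was 0.06 (log2), against 0.02 over all probe sets. The member at the median is FRE5, which lay below background, so this median says little of the family. The arrays of the groups did not overlap for 4 members (FRE1, FRE2, FRE3 and FRE7), against 44.8% of all probe sets. Of the members, 8 were above background on every array and FRE5 was above it on none.

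**Figure D1:**
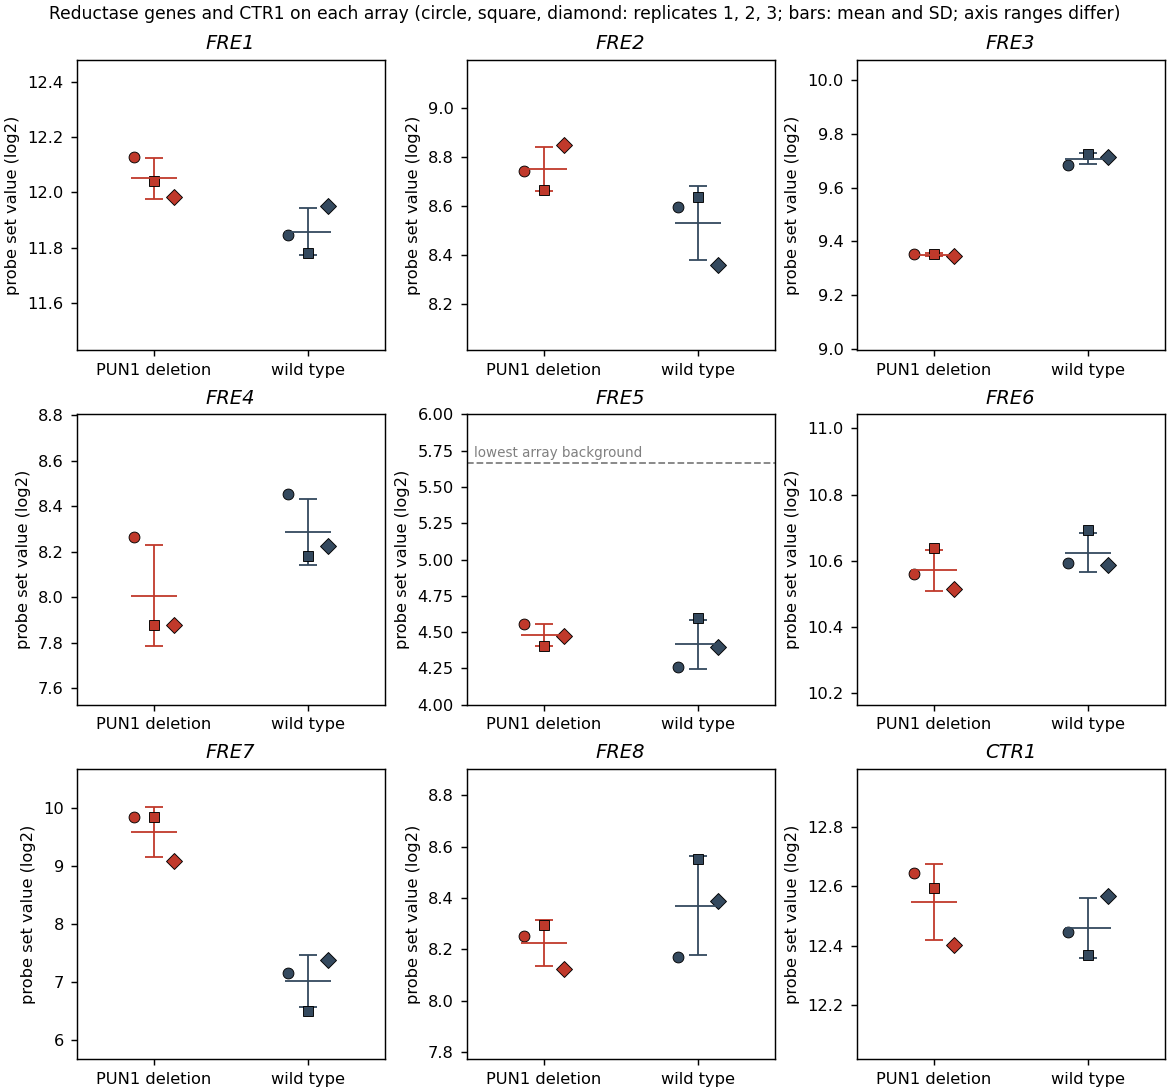
Log2 probe set value (vertical axes, with ranges that differ between panels) of the 9 members on each array, PUN1 deletion left of wild type; symbols are replicates 1, 2 and 3, and bars give the mean and SD. FRE7 is separated by more than its spread, FRE3 by a smaller step with very little spread, and FRE5 lies under the lowest array background of 5.67.

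Of the genes that answer to copper, FRE7 (YOL152W), which is not among the targets of Aft1 named above, was the one that moved most. It read 9.84, 9.84 and 9.09 (log2) on deletion replicates 1, 2 and 3, against 7.16, 6.51 and 7.38 on wild-type replicates 1, 2 and 3. The wild-type values were low, not far above the background of 5.70 to 5.74 on those arrays. All deletion arrays were high, and the lowest of them lay 1.72 above the highest wild-type array. The means were 9.59 ± 0.43 in deletion and 7.01 ± 0.45 in wild type (SD, n = 3 each). The log2 difference was 2.58 (SE 0.28, limma adjusted p = 0.00117), a 5.98-fold increase with a 95% interval of 3.76-fold to 9.49-fold. It was the 19th largest increase of all probe sets tested. In such cultures a change in the share of cells with the transcript and a change in RNA per cell cannot be told apart. The exact permutation test over the arrays gave a two-sided p = 0.1, the smallest that 3 against 3 allows. The difference was 2.33 to 2.83 when any 1 array was left out. It was 2.90 without the 3 arrays of high 25S signal, which leaves deletion replicate 1 as the lone mutant array. PUN1 read 8.33 (log2) on that array.

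FRE1 (YLR214W), the main surface reductase for both metals, read 12.13, 12.04 and 11.98 (log2) on the deletion arrays, against 11.84, 11.78 and 11.95 on the wild-type arrays. The groups did not overlap, by a narrow margin, and the difference of 0.19 (SE 0.06, 95% interval 0.05 to 0.34) missed the threshold (limma adjusted p = 0.0582). It passed without wild type replicate 3 (difference 0.24, adjusted p = 0.0447).

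CTR1 (YPR124W), whose product brings reduced copper into the cell, read 12.65, 12.59 and 12.40 on the deletion arrays and 12.44, 12.37 and 12.57 on the wild-type arrays (log2). The groups overlapped. The difference was 0.09 with a 95% interval of -0.10 to 0.28 (limma adjusted p = 0.466), which leaves room for a change of up to 1.21-fold.

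The change of FRE7 was set against those of FRE1 and CTR1 as a log2 ratio within each array. FRE7 over FRE1 was -2.29, -2.20 and -2.89 on the deletion arrays, against -4.69, -5.27 and -4.57 on the wild-type arrays, so the ratio shifted by 2.39 without overlap. FRE7 over CTR1 shifted by 2.49, also without overlap. Among the iron-linked members, FRE3 over FRE2 was 0.61, 0.69 and 0.50 on the deletion arrays, against 1.09, 1.08 and 1.36 on the wild-type arrays, a shift of -0.58. Each of these 3 pairs was picked after the values were known, and the lack of overlap followed from the members' own differences. The exact two-sided permutation test gave p = 0.1 for each (adjusted p = 0.1), the smallest possible, and adds nothing to those differences.

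FRE2 (YKL220C), the second surface ferric reductase, read 8.74, 8.67 and 8.85 (log2) on the deletion arrays, against 8.60, 8.64 and 8.36 on the wild-type arrays. The lowest deletion array lay just above the highest wild-type array. The difference of 0.22 (SE 0.09, 95% interval 0.02 to 0.42) did not pass (limma adjusted p = 0.103).

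FRE3 (YOR381W) read 9.35, 9.35 and 9.35 on the deletion arrays and 9.68, 9.72 and 9.71 on the wild-type arrays (log2). It had the least spread of the members, 9.35 ± 0.004 in deletion and 9.71 ± 0.02 in wild type (SD, n = 3 each), and every deletion array was lower. The log2 difference was -0.36 (SE 0.04, limma adjusted p = 0.000851), or 78.2% of the wild-type level with a 95% interval of 73.7% to 82.9%. It stayed between -0.37 and -0.35 when any 1 array was left out. FRE2 and FRE3 are close relatives, and probe sequences were not used here, so signal shared between them is uncertain.

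FRE4 (YNR060W), also a siderophore reductase gene, read 8.26, 7.88 and 7.88 (log2) on deletion replicates 1, 2 and 3, against 8.45, 8.18 and 8.22 on wild-type replicates 1, 2 and 3. Replicate 1 was the highest in both groups, and deletion replicate 1 lay among the wild-type arrays. The difference of -0.28 (SE 0.12, 95% interval -0.57 to 0.01) did not pass (limma adjusted p = 0.140). With the replicate number as a block it passed at the same size (adjusted p = 0.0141), as it did without deletion replicate 1 (-0.41, adjusted p = 0.0231). Leaving out the 3 arrays of high 25S signal, so that deletion replicate 1 is the lone mutant array, gave 0.06 (adjusted p = 0.677).

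The members linked to the vacuole or of unsettled role did not pass. FRE6 (YLL051C), a reductase of the vacuolar membrane that serves release of stored metal, read 10.56, 10.64 and 10.51 on the deletion arrays, against 10.59, 10.69 and 10.59 on the wild-type arrays (log2). Its groups overlapped, and the difference of -0.05 had a 95% interval of -0.18 to 0.07 (limma adjusted p = 0.483). FRE8 (YLR047C), a family member of unsettled role, read 8.25, 8.30 and 8.12 on the deletion arrays, against 8.17, 8.55 and 8.39 on the wild-type arrays. It overlapped too, at -0.15 (95% interval -0.39 to 0.09, limma adjusted p = 0.324). FRE5 (YOR384W), an Aft1 target, read 4.41 to 4.56 on the deletion arrays and 4.26 to 4.59 on the wild-type arrays, all below background, so no fold is given.

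**Figure D2:**
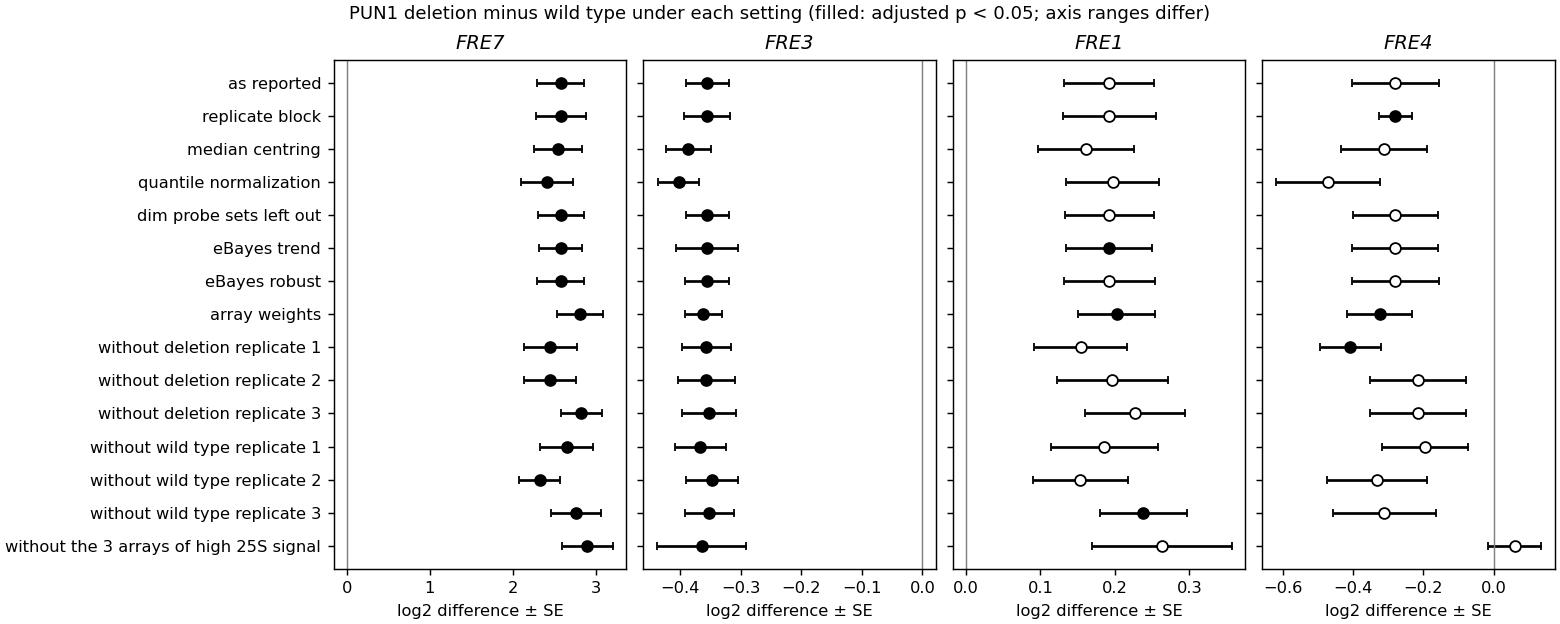
Log2 difference, PUN1 deletion minus wild type, with its SE (horizontal axes, ranges differ) for FRE7, FRE3, FRE1 and FRE4 under each setting (rows); filled points passed at adjusted p under 0.05. FRE7 and FRE3 passed in every row shown, FRE1 and FRE4 in some, and FRE4 lies above 0 without the 3 arrays of high 25S signal.

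FRE7 had a large spread within each group, and its lowest arrays were also the lowest for FRE1 and CTR1. FRE7, FRE1 and CTR1 were all lowest on replicate 3 within the deletion group and on replicate 2 within the wild-type group. CTR3, a second copper transporter gene, and IRC7, listed as a Mac1 target, had the same lowest arrays, and were the 2 of 18 measured genes of the copper lists that did. Of all probe sets tested, 4.53% had both. FRE3, FRE6 and FRE8 were also lowest on deletion replicate 3, but not on wild type replicate 2. The highest arrays differed: within the deletion group replicate 2 for FRE7 and replicate 1 for FRE1 and CTR1, and within the wild-type group replicate 3 for these 3 genes and replicate 1 for IRC7. The deviations of FRE7 were -0.50 on deletion replicate 3 and -0.51 on wild type replicate 2 (log2). They were much larger than those of CTR1 (-0.15 and -0.09) or FRE1 (-0.07 and -0.08). FRE7 was also much dimmer, with a wild-type mean of 7.01, against 12.46 for CTR1 and 11.86 for FRE1. Whether its larger spread goes with its lower level was not tested. FRE2 was highest on deletion replicate 3 and on wild type replicate 2, the arrays on which FRE7 was lowest. This order was noticed in the data and has no test.

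**Figure D3:**
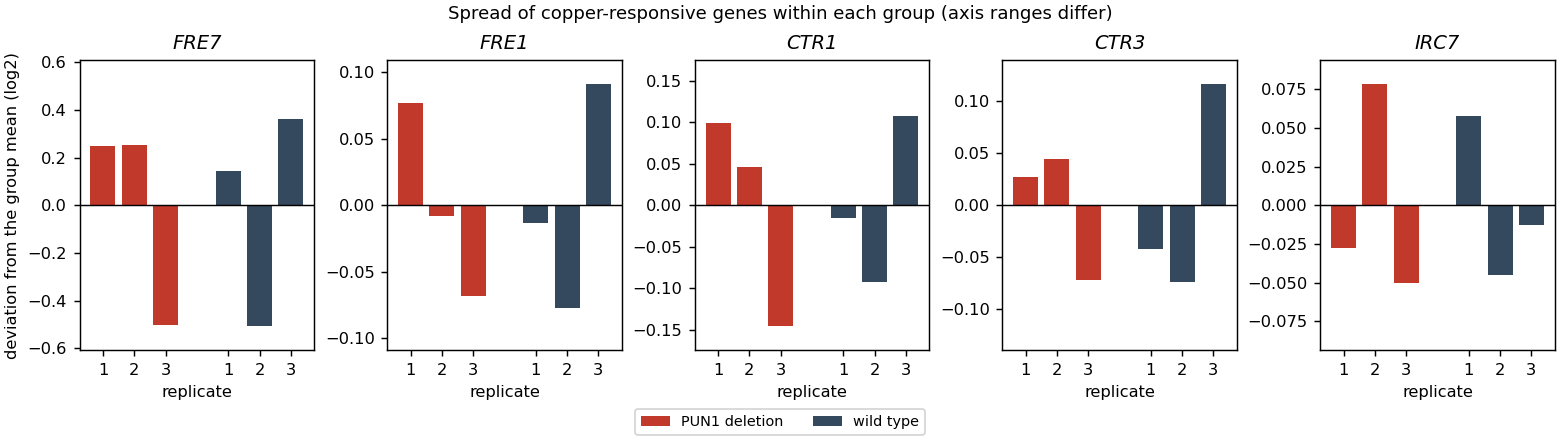
Deviation of each array from its group mean (log2; vertical axes differ in range) for FRE7, FRE1, CTR1, CTR3 and IRC7, with the PUN1 deletion arrays left of the wild-type arrays. Deletion replicate 3 and wild type replicate 2 are the lowest of their groups in all 5 panels. CTR3 and IRC7 are the 2 of 18 genes of the copper lists with this order, so the likeness of the panels follows from the choice of genes.

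Of the 4 measured genes of copper uptake and Mac1 targets outside the members, 1 rose and 3 missed the threshold. The share called was 25%, against 25.6% of all probe sets. IRC7, a lyase gene of sulfur compounds, was 0.60 higher (SE 0.05, limma adjusted p = 0.000449; 12.91 ± 0.07 in deletion and 12.31 ± 0.05 in wild type, SD, n = 3 each). CTR3 did not pass at 0.17 (adjusted p = 0.0987), and REE1 was above background on no array. CTR2, a copper transporter gene of the vacuole, differed by -0.18 (adjusted p = 0.0653). It passed with the replicate number as a block (adjusted p = 0.0322), which brings the list's count to 2, and without deletion replicate 1 (adjusted p = 0.0238). MAC1 itself, the activator of these genes, differed by 0.01 with a 95% interval of -0.10 to 0.12 (adjusted p = 0.881).

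Of 14 genes of copper delivery and storage, 1 fell and 13 missed the threshold (7.14% called, against 25.6% of all probe sets). CCC2, which pumps copper into the secretory pathway for Fet3, read 10.20, 10.13 and 10.10 on the deletion arrays, against 10.45, 10.83 and 10.77 on the wild-type arrays (difference -0.54, SE 0.10, limma adjusted p = 0.00963). CCS1, the copper chaperone of superoxide dismutase, had -0.22 (adjusted p = 0.0534), and passed without deletion replicate 1 or wild type replicate 1 (adjusted p = 0.0354 and 0.0481). The metallothionein probe set of CUP1-1, which its identical copy CUP1-2 shares, differed by -0.01 (95% interval -0.30 to 0.28).

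Among 11 iron uptake genes of the cell surface, 2 rose and 3 fell in the deletion arrays, and 6 missed the threshold. The share called was 45.5%, against 25.6% of all probe sets. The cell wall mannoprotein genes FIT1 and FIT3, whose products hold siderophores, were 0.45 and 0.30 higher (SE 0.09 and 0.04). ENB1, the transporter of the siderophore enterobactin, had a log2 difference of -0.93 (SE 0.10, limma adjusted p = 0.00129), FET4, a low-affinity iron and copper transporter gene, of -0.55 (SE 0.13), and SMF1, a manganese transporter gene, of -0.21 (SE 0.04). FET4 lost its call without deletion replicate 2 or wild type replicate 3 (adjusted p = 0.0568 and 0.0712) and differed by -0.29 without the 3 arrays of high 25S signal. FIT3 and SMF1 were also not called without those 3 arrays (adjusted p = 0.0760 and 0.0757). FET3 and FTR1, the partners of the surface reductases, did not pass at -0.14 and -0.19. With the replicate number as a block the list held 4 higher and 3 lower genes, as FIT2, another mannoprotein gene (0.39), and ARN1, a siderophore transporter gene (0.30), also passed (adjusted p = 0.00953 and 0.0360, against 0.0599 and 0.143 without the block).

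Of 10 genes that handle iron in the vacuole and mitochondria, 1 rose and 4 fell, and 5 missed the threshold. The share called was 50%, against 25.6% of all probe sets. ISU2, a scaffold gene of iron-sulfur clusters, read 11.44, 11.52 and 11.38 on the deletion arrays and 12.46, 12.56 and 12.64 on the wild-type arrays (difference -1.11, SE 0.06, limma adjusted p = 5.77e-05). Its paralog ISU1 differed by -0.38 (SE 0.07), SMF3, a vacuolar iron exporter gene, by -0.45 (SE 0.13) and MRS4, a mitochondrial iron carrier gene, by -0.22 (SE 0.05), while CCC1, the vacuolar iron importer gene, was 0.14 higher (SE 0.04). The call of CCC1 was lost whichever array was left out (adjusted p = 0.0592 to 0.117) and with the replicate block (0.0590), under which COT1 passed (-0.28, 0.0191) and the list held 0 higher and 5 lower genes. That of SMF3 was lost without any array but wild type replicate 1 (0.0635 to 0.125), and that of MRS4 without deletion replicate 3 or wild type replicates 2 or 3 (0.0517 to 0.0655). When the 3 arrays of high 25S signal were left out, MRS4 and CCC1 were not called (0.126 and 0.234), nor was CCC1 after median centring (0.0764). The list held 2 or 3 called genes without any single array but wild type replicate 1.

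Of 7 Aft1 targets that spare iron, 1 passed, LSO1, which was above background on no array, so no direction is given. The share called was 14.3%, against 25.6% of all probe sets. ECM4, the next by p, had 0.13 (limma adjusted p = 0.114). With the replicate block 2 genes passed, LSO1 and TIS11 (-0.37, adjusted p = 0.0390), a factor that degrades messages of iron-using proteins.

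Of 12 metal regulators, 2 rose and 3 fell, and 7 missed the threshold (41.7% called, against 25.6% of all probe sets). HAP4, an activator of respiration genes, had a log2 difference of -0.59 (SE 0.10, limma adjusted p = 0.00715). AFT1 had -0.49 (SE 0.13), with 10.13, 10.18 and 10.06 on the deletion arrays and 10.29, 10.75 and 10.79 on the wild-type arrays, and its paralog AFT2 had -0.27 (SE 0.06). CUP2, the copper-activated regulator of metallothionein, was 0.22 higher and GRX3, a glutaredoxin gene that holds Aft1 in check, 0.13 higher (SE 0.06 and 0.04). The call of GRX3 was lost whichever array was left out (adjusted p = 0.0685 to 0.136) and with the replicate block (0.0630), under which HAP1 passed (-0.15, 0.0491) and the list held 1 higher and 4 lower genes. Those of AFT1 (0.0692 to 0.107) and CUP2 (0.0899 to 0.125) were lost without any array but 1, wild type replicate 1 for AFT1 and deletion replicate 1 for CUP2. That of AFT2 was lost without deletion replicate 2 or wild type replicates 2 or 3 (0.0522 to 0.0582). CUP2 differed by 0.09 when the 3 arrays of high 25S signal were left out, where CUP2 and GRX3 were not called (0.4995 and 0.352), nor were they after median centring (0.0598 and 0.0901). The list held 1 to 3 called genes without any single array but wild type replicate 1.

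Of 11 genes that supply NADPH or haem, or are related to the reductases in sequence, 1 rose and 2 fell, and 8 missed the threshold. The share called was 27.3%, against 25.6% of all probe sets. HEM13, an oxygen-dependent haem enzyme, had a log2 difference of -0.64 (SE 0.05, limma adjusted p = 0.000385), and ZWF1, which makes NADPH from glucose phosphate, had -0.26 (SE 0.04), a call lost at adjusted p = 0.0648 once the 3 arrays of high 25S signal were left out. HEM1, the first step of haem synthesis, was 0.25 higher (SE 0.05). Over the 7 lists, 21 of 69 measured genes passed, 30.4% against 25.6% of all probe sets. LSO1, above background on no array, is among the 21.

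**Figure D4:**
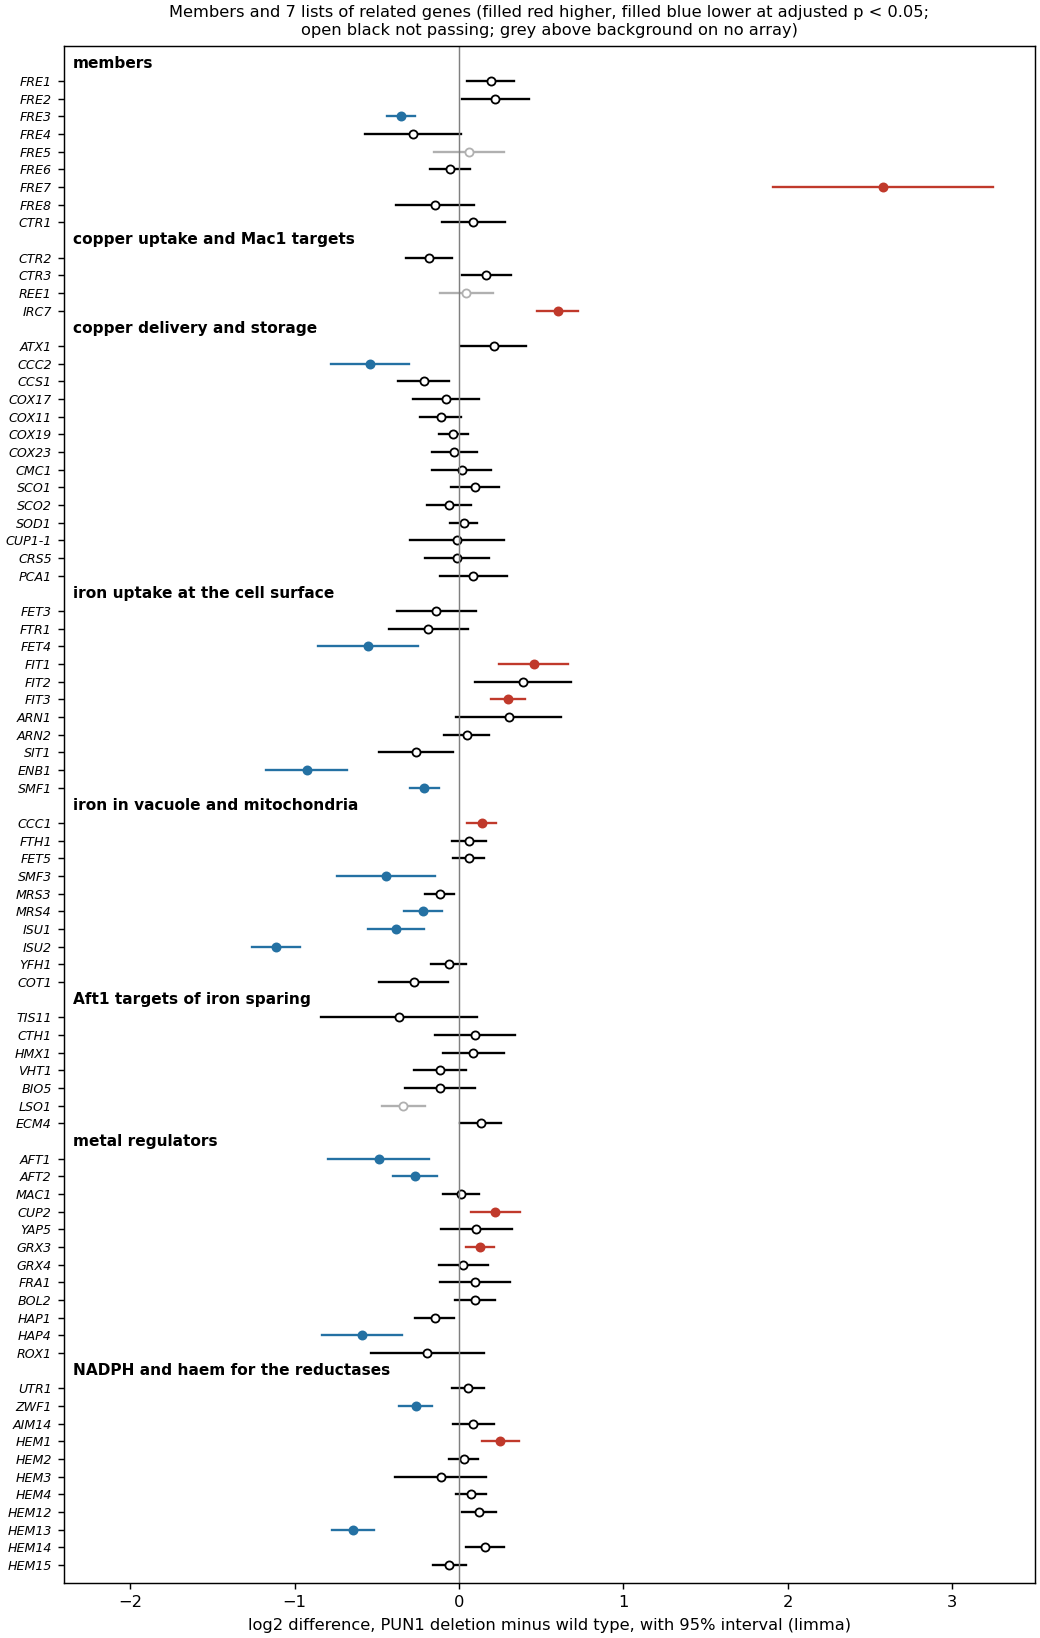
Log2 difference, PUN1 deletion minus wild type (horizontal axis, with 95% interval), for the 9 members and 69 genes of 7 lists (rows); filled red points passed as higher and filled blue points as lower, open black points did not pass, and grey genes were above background on no array. FRE7 lies far to the right at 2.58, and ISU2 and ENB1 lie farthest to the left.

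No 2 members are direct neighbours in the reference gene order, but FRE3 and FRE5 flank FIT2 and FIT3 on chromosome XV. In that stretch FRE3 was lower and FIT3 higher, FIT2 had 0.39 (limma adjusted p = 0.0599, and 0.00953 with the replicate block) and FRE5 was not above background. Beside FRE7, ZPS1, a gene induced by low zinc, was 0.46 higher (SE 0.08, adjusted p = 0.00739) and GRE2, a methylglyoxal reductase gene, had 0.34 (adjusted p = 0.0571, and 0.00735 with the replicate block). Both values were smaller than the 2.58 of FRE7. Beside CTR1, AXL1, a gene of axial budding that haploid cells express, was 2.03 higher (SE 0.07). Beside FRE6, the aquaporin gene AQY2 had a log2 difference of -1.52 (SE 0.35). Other members also had called neighbours. SRY1, 2 places from FRE2, had -0.77 (limma adjusted p = 0.000765). CRR1 beside FRE1 had 0.59 (0.0150) and YLR046C beside FRE8 had 0.50 (0.00260). The neighbours named here are not all that passed. Over the measured genes up to 2 places from a member on each side, 13 of 35 passed (37.1%, against 25.6% of all probe sets), 9 as higher and 4 as lower.

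The genes closest to FRE7 by distance between centred log2 values over the 6 arrays were HXT4, a hexose transporter gene (distance 0.78, difference 2.16), YHR033W (0.93, 2.31) and RME1, a repressor of meiosis that haploid cells express (0.98, 2.31). Closest to FRE3 were NIT1, LSP1, a gene of eisosomes, and AAT2, an aspartate aminotransferase gene, at distances of 0.02 to 0.07. Closest to FRE4 were NOP14, LTV1 and PWP2, genes of ribosome assembly, at 0.07 to 0.09. This measure is dominated by the size of the group difference and so ranks genes with a like difference.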

How the data were processed

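The deposited values are the authors' log2 probe set values of 6 arrays, made with GCRMA, which adjusts background by probe sequence; GCOS 1.1 and limma stand beside it in the submitters' processing notes, which give no order of steps. The range of the values points to a log base of 2, which no source states. Genome build and probe sequences are not given in the sources used here, and scanner files were not used. Names came from the annotation of the array platform, updated with the R64 gene table, which also gave the gene order. Of 10928 probe sets, 7244 had 1 symbol, 1 had several and 3683 had none; 5498 of S. cerevisiae genes were tested. Background was the 95th percentile of 1746 Schizosaccharomyces pombe probe sets. No column belonged to a sample outside the series (0 columns).

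Differences are deletion minus wild type from limma 3.58.1 in R 4.3.3 (lmFit, eBayes, no covariates, two-sided), with p-values adjusted by Benjamini-Hochberg over all tested probe sets and a threshold of 0.05; the fit was tested on simulated data. Figures used matplotlib 3.10.9. With 3 arrays per group, precision is limited by their number. The members, lists and tests were chosen with earlier results of these data known. Of each list, passing genes (up to 6 by size) or, with fewer than 2, the 2 smallest p-values were named, and for the 3 members with the largest difference the 3 nearest genes; MAC1, CTR3, REE1, CUP1-1, FET3, FTR1, FIT2, ARN1, COT1, TIS11, HAP1 and the chromosomal neighbours were named after their values were seen.

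Replicate numbers are shared by the groups, and no label states a shared day. Deviations from the group means of same-numbered arrays correlated at 0.351, 0.213 and 0.112, all over 0.1. The numbers were therefore used as a block in an alternative fit, while the reported differences and calls use no block. The calls of some genes, such as FRE4, depend on this choice. Also correlated were 2 pairs of different numbers. Deletion replicate 3 correlated with wild type replicate 2 at 0.183, and deletion replicate 2 with wild type replicate 3 at 0.161. Each was higher than the value for replicate 3, which makes replicates 2 and 3 a weak pairing. The deviations of the 3 arrays of a group sum to 0, which ties these correlations to one another. The same-numbered values are therefore not separate support for the block. Alternatives were the replicate block, median centring, quantile normalization, leaving out dim probe sets, moderation with trend or robust, and array weights. Further alternatives left out each array in turn, or the 3 arrays of high 25S signal together.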

Additional observations from a re-analysis of the deposited data

How the results depend on the processing

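FRE7 and FRE3 kept direction and call under all alternatives run, from 2.33 to 2.90 and from -0.40 to -0.35 (log2). FRE2, FRE6 and CTR1 passed under none; with 1 array left out FRE2 ranged from 0.14 (without wild type replicate 3) to 0.27, FRE6 from -0.09 (deletion replicate 2) to -0.02 (wild type replicate 2) and CTR1 from 0.04 (deletion replicate 1) to 0.16 (deletion replicate 3). FRE1 passed with eBayes trend (0.19, adjusted p = 0.0402) and array weights (0.20, 0.0206), and ranged from 0.15 to 0.24 with 1 array left out. FRE4 passed with the replicate block (-0.28, adjusted p = 0.0141) and array weights (-0.32, 0.0305), ranged from -0.41 to -0.20 with 1 array left out, and was 0.059 without the 3 arrays of high 25S signal. FRE8 passed after quantile normalization (-0.33, adjusted p = 0.0296) and ranged from -0.25 (without wild type replicate 1) to -0.05 (without wild type replicate 2). FRE5, below background, was -0.046 with array weights and -0.017 to 0.15 with 1 array left out. The cause of these changes was not tested.

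The members called numbered 4 with array weights and 2 to 3 with 1 array left out. Over all probe sets, 1408 passed as reported, 2116 with array weights, 820 without the 3 arrays of high 25S signal, where fewer arrays remain, and 791 to 1424 with 1 array left out (791 without deletion replicate 2, 860 without deletion replicate 3 and 936 without wild type replicate 2). Copper uptake and Mac1 targets held 2 called genes with the replicate block, median centring, quantile normalization or eBayes trend, 3 with array weights, and 1 to 2 with 1 array left out. Copper delivery held 2 with median centring or eBayes trend, 3 with array weights, and 1 to 3 with 1 array left out (3 without deletion replicate 1, 2 without wild type replicate 1). Surface iron uptake held 2 without the 3 arrays of high 25S signal and the metal regulators 3. Iron sparing held 2 with the replicate block, quantile normalization, array weights or without those 3 arrays, 0 when dim probe sets were left out, since its called gene is dim, and 1 to 2 with 1 array left out. Vacuolar and mitochondrial iron held 2 to 5 and metal regulators 1 to 4 with 1 array left out. Among the members and the list genes, the replicate block ended the calls of CCC1 and GRX3 and made calls of FRE4, CTR2, FIT2, ARN1, COT1, TIS11 and HAP1, and of no other. Each member has 1 probe set, so its dimmest probe set is the same one. List genes with several probe sets were read only on the brightest, and their dimmer probe sets were not compared. Without the 3 arrays of high 25S signal the lone deletion array is assumed to vary like wild type.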
